A study of Homo sapiens with 84 samples.

Results

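The genes described here make nucleotides, polyamines and the machinery that imports proteins into mitochondria. They were chosen by name, as a list of 40 genes, with earlier results of these data known. On the arrays of all 8 cell lines 39 of them are among the 12441 genes tested. The 40 genes fall into 18 genes of purine and pyrimidine synthesis, 9 genes of polyamine, methionine and folate metabolism, and 13 genes of mitochondrial protein import. The last group counts C1QBP, a matrix protein that is not part of the TOM or TIM complexes. Each gene was read from its brightest probe, and those 39 passed a filter that kept the brighter 50 percent of the probes by mean signal. TIMM50, the receptor subunit of the inner membrane import channel, did not pass and has no value. The detection limit was set from 3 OCILY1 arrays, the ones with detection p-values, and applied to all lines. TIMM13 lay below this limit on 37 of 48 arrays, DHODH on 12 and UMPS on 3, so differences of these genes are bounded by background. The other 36 tested members were above it on every array.

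The samples were established lines of human lymphoma, grown in culture and measured on 84 Illumina bead arrays. Cells of OCILY1, OCILY18, DOHH2, SUDHL10, U2932, TMD8, SUDHL2 and RIVA (8 lines) received PQR309, an inhibitor of both PI3K and mTOR, or its solvent DMSO, and were collected at 4, 8 and 12 h. The 4 lines RIVA, SUDHL2, U2932 and TMD8 also received IDELALISIB (a PI3K delta inhibitor), DUVELISIB (an inhibitor of PI3K delta and gamma) or IBRUTINIB (an inhibitor of the kinase BTK) at those 3 times. There was 1 array per line, treatment and time, doses are not in the labels, and the line served as the replicate, so that p-values measure the spread between lines and not between repeated cultures of a line. An array measures the RNA of a whole culture, so fewer expressing cells and less RNA per cell cannot be told apart.

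Growing cells build purine rings on a ribose phosphate scaffold and pyrimidine rings from aspartate and carbamoyl phosphate, and folate carries the carbon units that purine synthesis needs. Polyamines are small cations made from ornithine and decarboxylated S-adenosylmethionine, and proliferating lymphocytes need them for translation and growth. Most mitochondrial proteins are made in the cytosol and pass through the TOM channel of the outer membrane, small TIM chaperones of the intermembrane space and the TIM23 channel of the inner membrane. Many of these genes are textbook targets of the transcription factor MYC, which binds the DNA word CACGTG, and PI3K and mTOR signalling is known to drive several of the same pathways.

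The stretch from 250 bases before to 50 bases after each RefSeq start site (300 bases, GRCh38.p14) was searched for CACGTG, which reads the same on both strands. Of 38 member genes with an entry, 12 held it (31.6%), against 12.6% of the 9885 tested genes with an entry and 8.77% of the 27305 symbols in the table. The 12 were ATIC, DHODH, MTHFD1, MTHFD1L, NME1, ODC1, PAICS, PPAT, SRM, TIMM10, TIMM8A and TOMM20. By function they were 5 of 16 nucleotide genes, 4 of 9 polyamine, methionine and folate genes and 3 of 13 import genes. The word stood in 10 of the 24 members that fell with PQR309 (41.7%), against 15.7% of the 1415 genes that fell among all genes tested with an entry, and in 2 of the 12 members with an entry that did not pass the test (16.7%). A match is a description of the letters in this window and does not show binding. The members were chosen with earlier results of these data known, so the shares are a description too.

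The promoters printed here were taken only from members that hold CACGTG, and the capitals mark each one. Members without the word are not printed, among them TOMM40, AMD1, CTPS1, TIMM23, GMPS and C1QBP, which also fell with PQR309. The purine genes PPAT and PAICS lie head to head on chromosome 4, and their windows share 236 bases and the same CACGTG. It starts at position -182 of PPAT (chr4:56435566-56435865, minus strand) and at position 41 of PAICS (chr4:56435502-56435801, plus strand), counting the start site as 1.
PPAT: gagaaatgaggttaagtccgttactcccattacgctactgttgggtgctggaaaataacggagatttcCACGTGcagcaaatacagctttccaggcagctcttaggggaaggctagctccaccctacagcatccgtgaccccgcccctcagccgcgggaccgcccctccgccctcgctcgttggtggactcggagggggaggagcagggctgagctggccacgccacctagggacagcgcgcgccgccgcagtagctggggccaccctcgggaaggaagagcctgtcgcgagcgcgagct
PAICS: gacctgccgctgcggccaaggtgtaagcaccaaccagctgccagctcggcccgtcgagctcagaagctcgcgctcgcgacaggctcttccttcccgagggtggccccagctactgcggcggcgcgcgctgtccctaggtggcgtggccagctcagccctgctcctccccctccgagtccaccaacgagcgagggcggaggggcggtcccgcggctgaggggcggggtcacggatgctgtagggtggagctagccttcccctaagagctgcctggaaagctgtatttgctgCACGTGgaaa
ODC1, of polyamine synthesis, holds the word at -29 and at 6 (chr2:10447963-10448262, minus strand), and ATIC, of purine synthesis, at -46 and 30 (chr2:215311809-215312108, plus strand).
ODC1: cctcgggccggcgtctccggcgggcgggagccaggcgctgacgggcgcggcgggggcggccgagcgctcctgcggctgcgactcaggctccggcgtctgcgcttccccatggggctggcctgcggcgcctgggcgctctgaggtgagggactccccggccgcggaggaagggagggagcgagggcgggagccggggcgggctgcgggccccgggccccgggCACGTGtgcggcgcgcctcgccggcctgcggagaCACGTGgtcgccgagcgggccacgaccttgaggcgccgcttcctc
ATIC: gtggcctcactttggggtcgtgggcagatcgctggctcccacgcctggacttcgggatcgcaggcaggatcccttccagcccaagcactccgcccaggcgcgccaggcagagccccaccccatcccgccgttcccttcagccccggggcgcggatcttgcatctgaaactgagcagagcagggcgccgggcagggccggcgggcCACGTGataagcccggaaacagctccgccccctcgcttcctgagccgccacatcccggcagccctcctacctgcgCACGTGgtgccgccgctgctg
In NME1 (chr17:51153309-51153608, plus strand) and in TIMM8A (chrX:101348693-101348992, minus strand) it lies inside the transcribed part, at 35 and at 29.
NME1: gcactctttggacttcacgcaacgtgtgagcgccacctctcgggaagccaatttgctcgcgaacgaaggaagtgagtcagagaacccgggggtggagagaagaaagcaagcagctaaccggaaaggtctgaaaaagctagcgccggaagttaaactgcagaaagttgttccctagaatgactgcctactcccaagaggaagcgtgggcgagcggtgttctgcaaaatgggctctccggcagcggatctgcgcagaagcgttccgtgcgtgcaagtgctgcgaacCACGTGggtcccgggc
TIMM8A: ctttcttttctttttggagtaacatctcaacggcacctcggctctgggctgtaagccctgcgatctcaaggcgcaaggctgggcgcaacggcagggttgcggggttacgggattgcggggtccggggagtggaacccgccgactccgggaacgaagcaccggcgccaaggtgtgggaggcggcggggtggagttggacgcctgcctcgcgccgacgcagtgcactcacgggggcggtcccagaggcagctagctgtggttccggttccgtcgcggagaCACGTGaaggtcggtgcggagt
IMPDH2 and ADSL had no entry.

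All values are log2 of signal. Over all values of the 48 normalized arrays of the 8 lines the median was 6.64. Of the 6 B-cell markers on the array, 5 were above the detection limit of 6.73 in every line. T-cell markers were below it in every line for 4 of 6, and the mean level of the list ran between 6.56 and 6.67 in PQR309 cultures and between 6.54 and 6.71 in DMSO cultures. The deposited raw table held intensities for 81 arrays, of which 27 ranked probes unlike the normalized array of the same name (rank correlation 0.816 to 0.91), among them the PQR309 and DMSO arrays of the 4 lines given every inhibitor. All 81 arrays correlated best with their own line, so these 27 were treated as other arrays of the same lines, while the remaining 54 ranked probes as the normalized array did. That comparison used the 500 probes most variable between lines, so it bears on the line only. The treatment and time of the 27 arrays rest on their labels. In the raw table the DMSO array of SUDHL2 at 8 h stood apart, with a median correlation of 0.942 to the other arrays of its line, where the next lowest was 0.968.

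On the normalized arrays PQR309 lowered most of these genes. Averaged over the 3 times, 24 of the 39 members fell and 2 rose at an adjusted p under 0.05 (limma across all genes), where 14.0% of all genes fell and 12.5% rose. Because the members were chosen with earlier results of these data known, these counts describe the list and are not independent support. On the raw intensities 12 fell and 1 rose, beside 1285 genes called in all. These cover 6 lines, without OCILY1 and DOHH2, so the lines changed along with the values. The median difference of the members was -0.21, beside a median of -0.000116 over all genes, and 34 of the 39 lay below 0. The channel gene TOMM40 had the lowest difference, -0.65, and the CTP synthase gene CTPS2 the highest, 0.34. For every member the range of levels over the lines under PQR309 overlapped the range under DMSO, since lines differ more from each other than the drug moved them. The calls therefore rest on the change within each line. The share of all genes with overlapping ranges is not given here, so the overlap is not read as particular to the members.

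**Figure D1:**
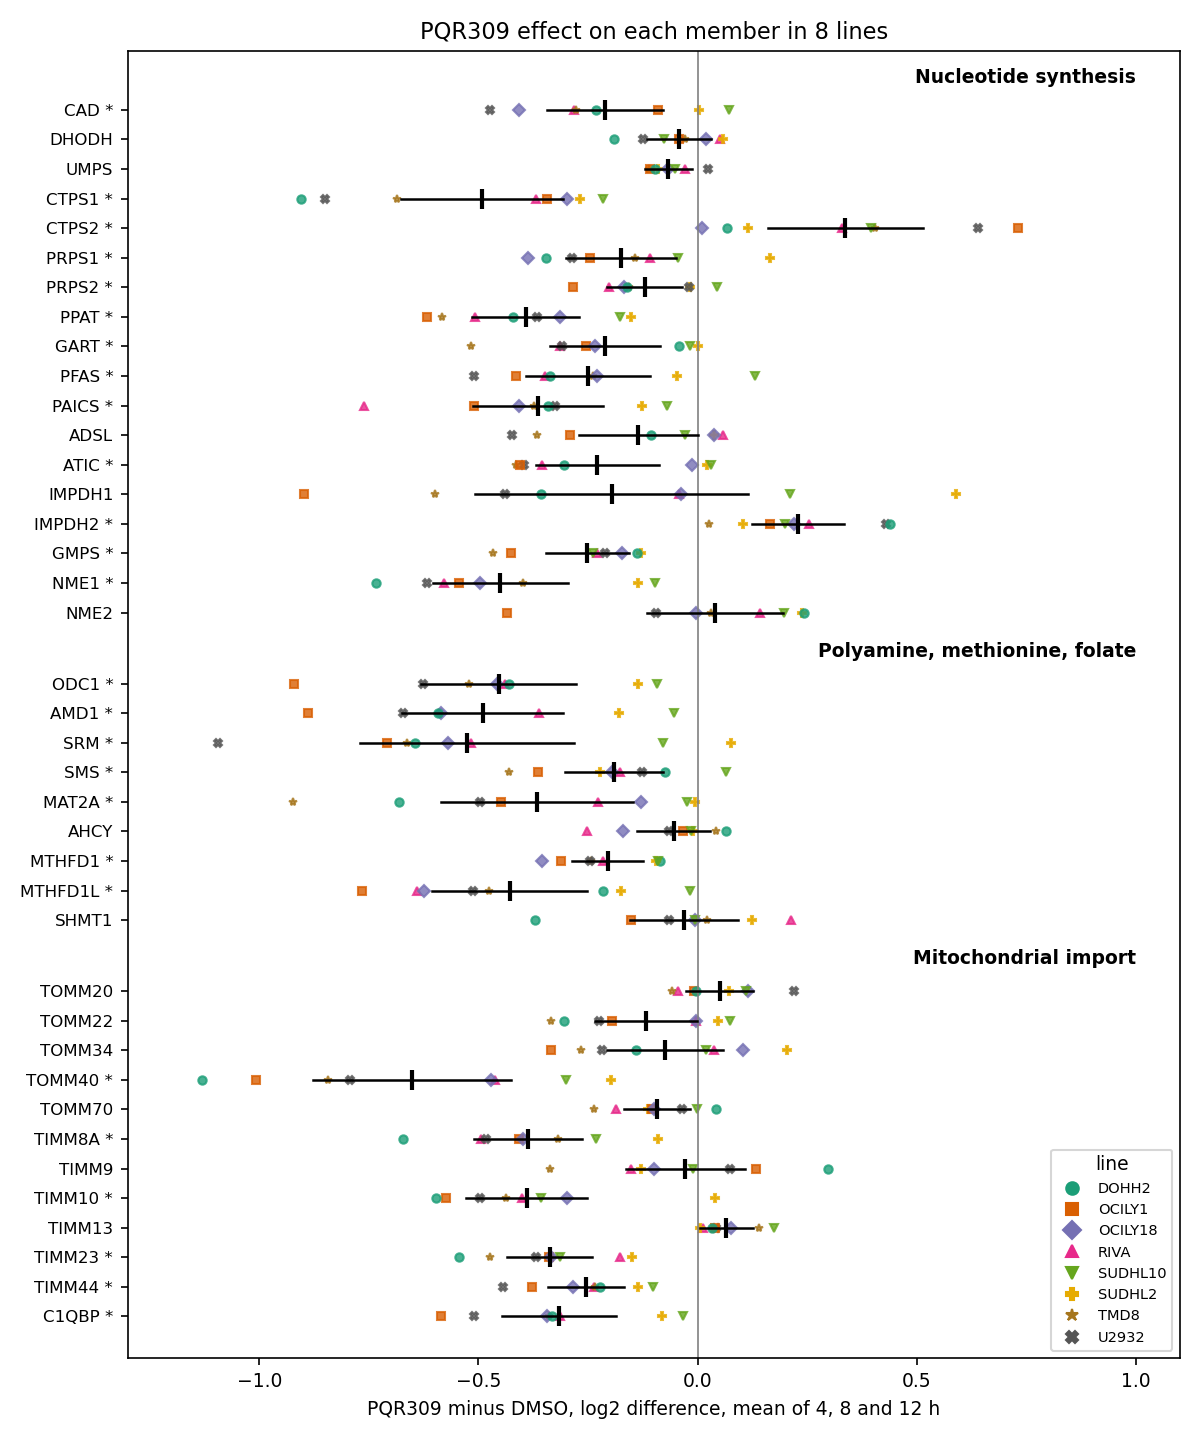
PQR309 minus DMSO in log2, averaged over 4, 8 and 12 h, for the 39 members tested. Coloured points are the 8 lines, vertical ticks their mean and horizontal bars its 95 percent interval from limma. Asterisks mark the 24 members that fell and the 2 that rose (CTPS2 and IMPDH2), and the means span -0.65 in TOMM40 to 0.34 in CTPS2.

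Purine synthesis starts from phosphoribosyl pyrophosphate, made by PRPS1 and PRPS2. PRPS1 ranged over 9.46 in OCILY1, a median of 9.997 and 10.84 in SUDHL2 under PQR309, against 9.70 in OCILY1, 10.23 and 10.68 in SUDHL2 under DMSO, a difference of -0.17 ± 0.06 (SE, n = 8 lines; limma adjusted p = 0.0447). PRPS2 ranged over 8.47 in DOHH2, a median of 8.94 and 9.59 in SUDHL2 under PQR309, against 8.63 in DOHH2, 9.03 and 9.61 in SUDHL2 under DMSO (-0.12 ± 0.04; limma adjusted p = 0.0404). Both fell, with small changes, and SUDHL2 had the highest level of both in either treatment. Neither call was kept without certain single lines: PRPS1 passed only when SUDHL2 or SUDHL10 was the line left out.

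PPAT, the enzyme of the committed step of purine synthesis, had a lowest level of 8.60 in RIVA, a median of 9.08 and a highest of 9.59 in SUDHL10 under PQR309, and 9.10 in RIVA, 9.42 and 9.77 in SUDHL10 under DMSO. It was lower in 8 of 8 lines, from -0.62 in OCILY1 to -0.15 in SUDHL2, with a mean difference of -0.39 ± 0.05 (SE, n = 8; limma adjusted p = 0.00122). RIVA was at the bottom and SUDHL10 at the top under both treatments. PAICS, which catalyses a pair of later steps and shares the promoter region printed above, fell by 0.36 ± 0.07 (limma adjusted p = 0.00354), most in RIVA (-0.76) and least in SUDHL10 (-0.07). PFAS (-0.25), ATIC (-0.23) and GART (-0.21), which carry out other steps of ring building, also fell, so that 5 of the 6 ring genes were called. ADSL, the lyase that acts both in ring building and in making AMP, did not pass over the 3 times (-0.14 ± 0.06; limma adjusted p = 0.129), and its sign differed between lines. The calls of ATIC and GART were lost without single lines, of RIVA or U2932 among others.

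The guanine branch split. GMPS, which makes GMP, had 8.32 in OCILY18, a median of 9.66 and 10.43 in SUDHL2 under PQR309, against 8.49 in OCILY18, 9.98 and 10.56 in SUDHL2 under DMSO. It fell in every line, by 0.25 ± 0.04 on average (SE, n = 8; limma adjusted p = 0.00243). IMPDH2, the main isoform of the rate-limiting dehydrogenase of GTP synthesis in proliferating cells, rose: 9.90 in SUDHL2, a median of 11.73 and 12.16 in DOHH2 under PQR309, against 9.80 in SUDHL2, 11.55 and 11.97 in TMD8 under DMSO (0.23 ± 0.05; limma adjusted p = 0.00619). It was higher in 8 of 8 lines, from 0.03 in TMD8 to 0.44 in DOHH2, and SUDHL2 was the lowest line in either treatment, with RIVA next at 10.40 under PQR309 and 10.15 under DMSO. Its paralog IMPDH1 had 7.62 in OCILY1, a median of 8.64 and 10.69 in SUDHL2 under PQR309, against 8.32 in U2932, 8.84 and 10.33 in SUDHL10 under DMSO. IMPDH1 did not pass the test (-0.20 ± 0.14; limma adjusted p = 0.339), with line values that ran between -0.90 in OCILY1 and 0.59 in SUDHL2.

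Of the 5 pyrimidine genes 2 fell and 1 rose. CAD, the enzyme that carries out the opening steps, fell by 0.21 ± 0.06 (limma adjusted p = 0.0257), a mean over times at which its values differed, as given below. DHODH (-0.04), the mitochondrial dehydrogenase, and UMPS (-0.07), which completes UMP, did not pass and were close to background. The CTP synthases moved apart. CTPS1 had 8.60 in TMD8, a median of 9.47 and 9.81 in OCILY1 under PQR309, against 9.29 in TMD8, 9.79 and 10.15 in OCILY1 under DMSO, and fell in 8 of 8 lines (-0.49 ± 0.08; limma adjusted p = 0.00256). CTPS2 had 8.14 in DOHH2, a median of 9.44 and 10.26 in U2932 under PQR309, against 8.07 in DOHH2, 9.23 and 9.87 in RIVA under DMSO, and was higher in 8 of 8 lines (0.34 ± 0.08; limma adjusted p = 0.0116). CTPS1 changed most in DOHH2, U2932 and TMD8, and CTPS2 in OCILY1 (0.73) and U2932 (0.64). The CTPS2 call rests on its brightest probe, while dimmer probes of the gene read 0.15 and 0.03, and it was lost on the raw intensities of 6 lines (adjusted p = 0.0677).

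NME1 and NME2 are neighbouring genes whose products, nucleoside diphosphate kinases, pass phosphate between nucleotides. NME1 had 11.84 in DOHH2, a median of 12.37 and 13.23 in SUDHL2 under PQR309, against 12.57 in DOHH2, 12.93 and 13.36 in SUDHL2 under DMSO (-0.45 ± 0.07; limma adjusted p = 0.00173). It was lower in every line, least in SUDHL10 (-0.10) and SUDHL2 (-0.14). NME2 had 7.99 in OCILY1, a median of 8.60 and 8.96 in OCILY18 under PQR309, against 8.19 in U2932, 8.51 and 8.97 in OCILY18 under DMSO, and did not pass (0.04 ± 0.07; limma adjusted p = 0.719). Of the other NME2 probes, those kept by the filter read -0.13 and -0.16, and a dimmer probe left out by it read 0.01. The sign for NME2 thus depends on the probe. The plot of the paralog pairs shows the 4 pairs line by line.

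**Figure D2:**
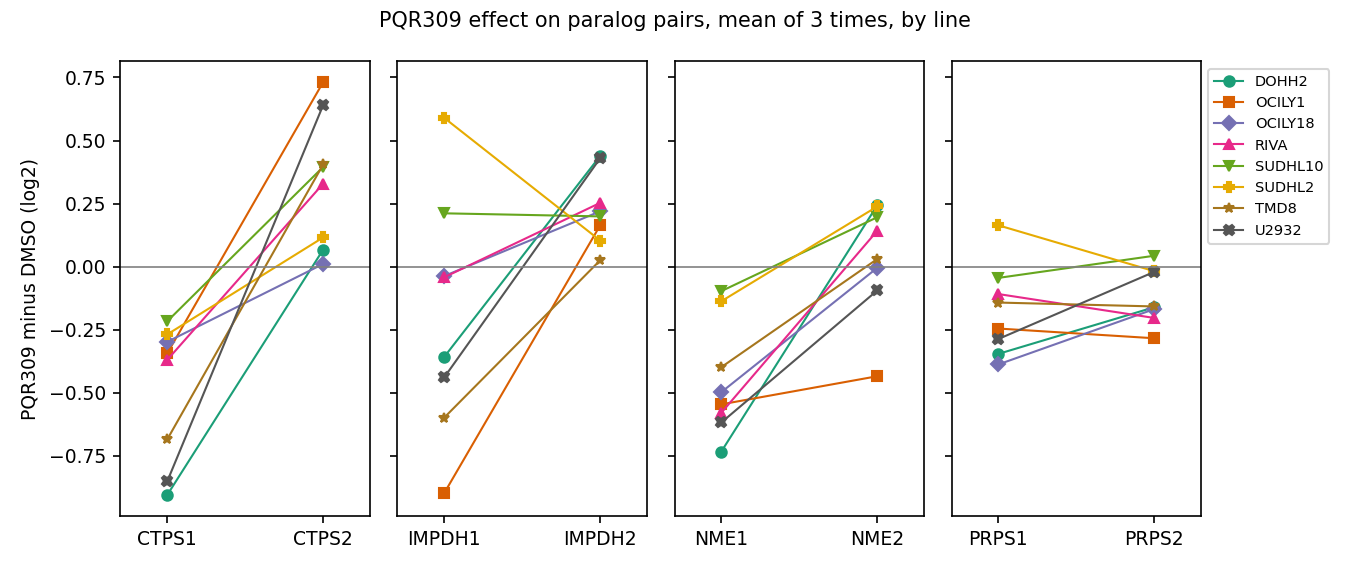
PQR309 minus DMSO in log2, averaged over the 3 times, for the paralog pairs CTPS1 and CTPS2, IMPDH1 and IMPDH2, NME1 and NME2, and PRPS1 and PRPS2. Each line joins the values of 1 cell line, and CTPS2 lies above CTPS1 in all 8 lines.

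The genes of polyamine synthesis fell as a whole group, 4 of 4, with a median of -0.47. ODC1, the rate-limiting ornithine decarboxylase, had 10.85 in OCILY1, a median of 11.64 and 12.19 in SUDHL2 under PQR309, against 11.69 in OCILY18, 12.10 and 12.33 in SUDHL2 under DMSO (-0.45 ± 0.08; SE, n = 8; limma adjusted p = 0.00295). AMD1, the decarboxylase that supplies the aminopropyl donor, had 7.58 in OCILY1, a median of 8.27 and 8.90 in SUDHL10 under PQR309, against 8.25 in RIVA, 8.68 and 9.15 in OCILY18 under DMSO (-0.49 ± 0.08; limma adjusted p = 0.00243). Both were lower in 8 of 8 lines, most in OCILY1 (-0.92 and -0.89) and least in SUDHL10 (-0.09 and -0.05). SRM, spermidine synthase, is described because its mean fall was the lowest of its function, a choice made after its values were seen. It had 8.24 in U2932, a median of 9.13 and 10.49 in SUDHL2 under PQR309, against 9.33 in U2932, 9.81 and 10.46 in TMD8 under DMSO (-0.53 ± 0.11; limma adjusted p = 0.00675). SRM was lowest in U2932 (-1.09) and at -0.08 in SUDHL10, and SUDHL2 was the 1 line above 0. SMS, spermine synthase, fell by 0.19 ± 0.05 (limma adjusted p = 0.0186).

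Methionine and folate genes followed in part. MAT2A, which makes S-adenosylmethionine, fell by 0.37 ± 0.10 (limma adjusted p = 0.0203), between -0.92 in TMD8 and -0.01 in SUDHL2, and its call was lost without U2932 (adjusted p = 0.052) or DOHH2 (0.0505). AHCY, which clears S-adenosylhomocysteine, was at -0.05 and did not pass. MTHFD1, the cytosolic folate enzyme, had 7.61 in OCILY18, a median of 7.82 and 8.34 in SUDHL10 under PQR309, against 7.94 in DOHH2, 8.06 and 8.43 in SUDHL10 under DMSO (-0.21 ± 0.04; limma adjusted p = 0.00329). It was lower in every line, within a narrow range. Its mitochondrial relative MTHFD1L fell further, by 0.43 ± 0.08 (limma adjusted p = 0.0039), to -0.76 in OCILY1 and -0.64 in RIVA but -0.02 in SUDHL10. SHMT1, the cytosolic serine hydroxymethyltransferase, did not pass (-0.03).

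Among the 12 import genes tested, C1QBP included, 6 fell and none rose. In the outer membrane the channel TOMM40 was the 1 of 5 genes called. It is given in full because it had the lowest mean of all members, a choice made after its values were seen: 9.19 in U2932, a median of 10.47 and 10.87 in TMD8 under PQR309, against 9.98 in U2932, 10.84 and 11.71 in TMD8 under DMSO (-0.65 ± 0.10; SE, n = 8; limma adjusted p = 0.00183). This is 0.637 times the DMSO level, and the line values ran between -1.13 in DOHH2 and -0.20 in SUDHL2. The receptors TOMM20 (0.05), TOMM22 (-0.12) and TOMM70 (-0.09) and the cytosolic factor TOMM34 (-0.07) did not pass. The difference between TOMM40 and these genes was not tested.

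Of the small chaperones TIMM8A and TIMM10 fell, while TIMM9 (-0.03) and the dim TIMM13 (0.07) did not pass. TIMM8A had 7.43 in RIVA, a median of 7.92 and 8.31 in SUDHL2 under PQR309, against 7.82 in TMD8, 8.35 and 8.56 in DOHH2 under DMSO (-0.39 ± 0.06; SE, n = 8; limma adjusted p = 0.00136). It was lower in every line, most in DOHH2 (-0.67). TIMM10, which forms a chaperone complex with TIMM9, fell by 0.39 ± 0.06 (limma adjusted p = 0.00198), and SUDHL2 was the 1 line above 0.

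In the inner membrane both genes tested fell. TIMM23, the channel, had 10.88 in OCILY18, a median of 11.37 and 11.84 in SUDHL10 under PQR309, against 11.12 in SUDHL2, 11.65 and 12.15 in SUDHL10 under DMSO (-0.34 ± 0.04; SE, n = 8; limma adjusted p = 0.00105). Its 4 probes read between -0.38 and -0.34, and signal from the near-identical copy TIMM23B cannot be separated on these probes. TIMM44, which tethers the import motor, had 7.14 in RIVA, a median of 7.65 and 8.01 in SUDHL10 under PQR309, against 7.38 in RIVA, 7.95 and 8.38 in U2932 under DMSO (-0.25 ± 0.04; limma adjusted p = 0.00173). Both were lower in 8 of 8 lines. C1QBP, a matrix protein needed for mitochondrial translation, fell by 0.32 ± 0.06 (limma adjusted p = 0.00376), most in OCILY1 (-0.58).

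By function, 11 of 18 nucleotide genes fell and 2 rose, 7 of 9 polyamine, methionine and folate genes fell, and 6 of 12 import genes fell. The median over members, taken in each line and then averaged over lines, was -0.20 ± 0.13 for nucleotide genes, -0.31 ± 0.18 for polyamine, methionine and folate genes and -0.21 ± 0.11 for import genes (SD, n = 8 lines). The polyamine, methionine and folate genes ran lowest in U2932 (-0.50). Their median lay below that of the nucleotide genes and below that of the import genes in 8 of 8 lines, in SUDHL10 by almost nothing, and this order was not tested. The 12 members AMD1, C1QBP, CTPS1, GMPS, MTHFD1L, ODC1, PAICS, PPAT, TIMM10, TIMM23, TIMM8A and TOMM40 kept their call under every alternative that kept the line pairing. The rest of the calls were lost under at least 1 of them.

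The members' median is given here line by line as a description, from 1 array per line, treatment and time, and differences between single lines were not tested. Over the 39 members it was -0.34 in OCILY1 and in TMD8, -0.32 in U2932, -0.23 in DOHH2 and in RIVA, -0.20 in OCILY18, and -0.02 in SUDHL10 and in SUDHL2. In the raw table, over 38 members, SUDHL2 was at -0.10. In OCILY1 35 of 39 members lay below 0, in SUDHL10 26 and in SUDHL2 22. MYC itself moved by -0.90 in U2932, -0.88 in TMD8, -0.36 in OCILY1 and -0.18 in RIVA, but by 0.13 in OCILY18, 0.27 in DOHH2, 0.41 in SUDHL2 and 1.05 in SUDHL10. MYC did not pass on average (-0.06 ± 0.20; limma adjusted p = 0.861), nor did its partner MAX (-0.04; limma adjusted p = 0.539), and the part of MYC in the members' differences was not tested. OCILY1, TMD8 and U2932 had the lowest member medians and also the lowest MYC differences, and SUDHL10 and SUDHL2 had the highest of both. DOHH2, with MYC above 0, had the lowest TOMM40, CTPS1, TIMM8A and TIMM23 differences. Neither observation was tested. Between the 4 lines given every inhibitor and the other 4 lines, limma called 0 of 39 members and 0 of 12441 genes different in their PQR309 effect, with 0 members and 543 genes at an unadjusted p under 0.05.

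Other genes of the same pathways were taken from lists written with earlier results of these data known. Of 29 other nucleotide genes 8 fell and 5 rose with PQR309 over the 3 times, with a median of -0.00. The falls of largest size were PNP, a purine salvage phosphorylase (-0.62 ± 0.11; limma adjusted p = 0.00365), AK4, a mitochondrial adenylate kinase (-0.40), and UCK2, a uridine and cytidine kinase (-0.34). The rises were led by ADA, adenosine deaminase (0.50 ± 0.07; limma adjusted p = 0.00114), NT5C2, a nucleotidase (0.37), and DCK, deoxycytidine kinase (0.29). Of 21 other polyamine, methionine and folate genes 3 fell and 3 rose, shares near the 14.0% and 12.5% of all genes: AMT (0.25), MAT2B (0.24), DHPS (0.22), MTFMT (-0.21), APIP (-0.20) and MTRR (-0.16). Of 28 other import genes 16 fell and 1 rose, with a median of -0.12. TOMM5, a small subunit of the TOM channel (-0.53 ± 0.07; limma adjusted p = 0.00114), the matrix chaperonin partner HSPE1 (-0.40) and the import motor chaperone HSPA9 (-0.39) fell most, and PMPCB, a subunit of the presequence peptidase, rose (0.23).

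**Figure D3:**
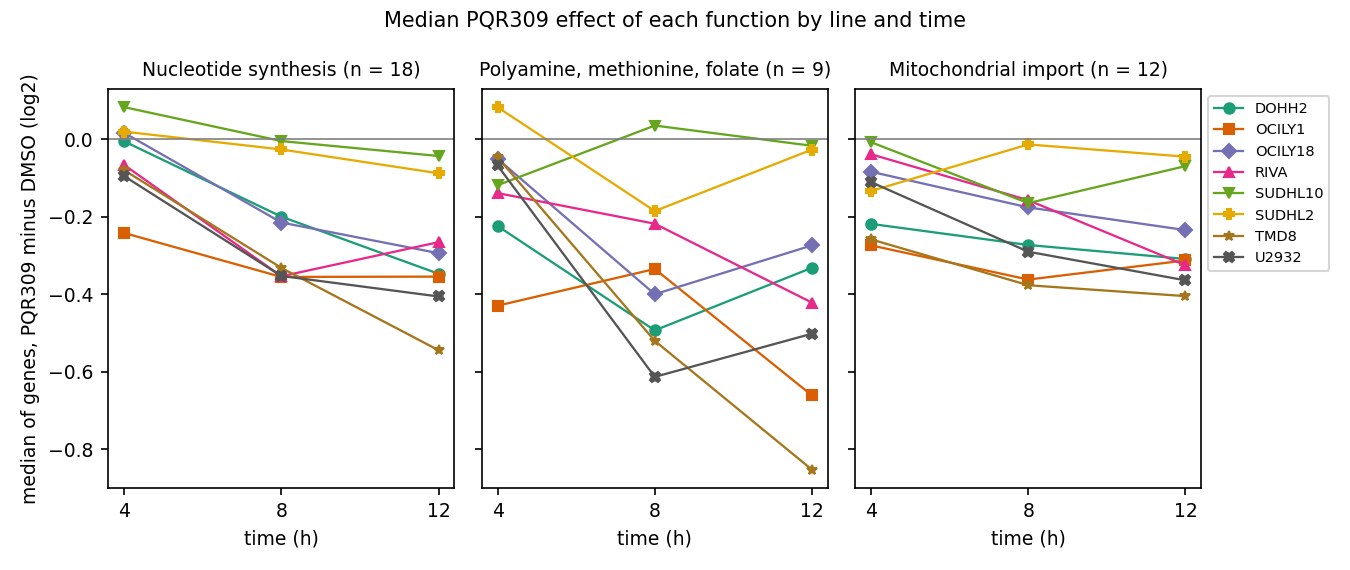
Median PQR309 minus DMSO difference (log2) over the members of each function in each of the 8 lines against time (4, 8 and 12 h). At 12 h the polyamine, methionine and folate genes reach -0.85 in TMD8 and stay at -0.02 in SUDHL10.

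The number of members called grew after 4 h. At 4 h 7 fell and 2 rose, where 9.44% of all genes fell and 7.88% rose. At 8 h 22 fell and 2 rose, with 8.49% and 7.49% of all genes, and at 12 h 23 fell and 1 rose, with 10% and 10.5%. Averaged over lines, the nucleotide medians were -0.05 ± 0.10, -0.23 ± 0.15 and -0.29 ± 0.16 at 4, 8 and 12 h (SD, n = 8 lines). Those of polyamine, methionine and folate genes were -0.12 ± 0.15, -0.34 ± 0.21 and -0.39 ± 0.29, and those of import genes -0.14 ± 0.10, -0.23 ± 0.12 and -0.26 ± 0.13. Without RIVA the 4 h counts were 4 fallen and 1 risen. On the raw intensities of 6 lines they were 3 fallen and 0 risen at 4 h and at 8 h, beside 207 and 84 genes called in all. The calls kept under every alternative with the line pairing were CTPS1, PPAT and TIMM8A at 4 h, TIMM10, TIMM8A and TOMM40 at 8 h, and 15 of 24 at 12 h.

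The 7 falls at 4 h were spread over the functions, and the smallest adjusted p belonged to TIMM8A. It had 7.30 in RIVA, a median of 7.91 and 8.06 in SUDHL10 under PQR309, against 7.85 in TMD8, 8.33 and 8.57 in SUDHL10 under DMSO (-0.45 ± 0.05; limma adjusted p = 0.000555). TIMM23 had 10.72 in OCILY18, 11.27 and 11.93 in SUDHL10 under PQR309, against 11.23 in OCILY18, 11.56 and 12.22 in SUDHL10 under DMSO (-0.33 ± 0.04; limma adjusted p = 0.000833). Both were lower in 8 of 8 lines, as was PPAT (-0.35 ± 0.05; limma adjusted p = 0.00251), with 8.65 in RIVA, 9.08 and 9.53 in U2932 under PQR309, against 9.04 in DOHH2, 9.46 and 10.04 in SUDHL10 under DMSO. CTPS1 (-0.39), AMD1 (-0.43), TOMM40 (-0.44) and MTHFD1L (-0.17) were the other early falls. AMD1 and TOMM40 each had 1 line, OCILY1, at -1.33. IMPDH2 rose at 4 h, with 10.13 in SUDHL2, 11.74 and 12.25 in DOHH2 under PQR309, against 9.81 in SUDHL2, 11.28 and 11.89 in TMD8 under DMSO (0.39 ± 0.07; limma adjusted p = 0.00451). CTPS2 had 8.10 in DOHH2, 9.24 and 10.10 in OCILY1 under PQR309, against 7.93 in DOHH2, 9.25 and 9.83 in RIVA under DMSO (0.22 ± 0.06; limma adjusted p = 0.0381), higher in 7 of 8 lines.

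At 8 h TOMM40 had 9.29 in OCILY1, a median of 10.39 and 10.96 in RIVA under PQR309, against 9.99 in U2932, 10.94 and 11.64 in TMD8 under DMSO (-0.77 ± 0.10; limma adjusted p = 0.001). TIMM44 had 7.10 in RIVA, 7.57 and 7.99 in SUDHL10 under PQR309, against 7.50 in RIVA, 8.02 and 8.50 in U2932 under DMSO (-0.46 ± 0.06; limma adjusted p = 0.00135). ODC1 had 10.90 in OCILY1, 11.64 and 12.26 in SUDHL10 under PQR309, against 11.85 in OCILY18, 12.23 and 12.44 in SUDHL2 under DMSO (-0.57 ± 0.09; limma adjusted p = 0.00251). TOMM40 and TIMM44 were lower in every line, while ODC1 was almost level in SUDHL10 (-0.02). On the raw intensities the calls of TIMM44 (adjusted p = 0.447) and ODC1 (0.0715) at 8 h were lost, where 84 genes were called in all. That fit lacks OCILY1 and DOHH2 and includes the DMSO array of SUDHL2 that stood apart. IMPDH1 was called at 8 h alone among the 3 times (-0.39 ± 0.09; limma adjusted p = 0.0144). CTPS2 (0.39 ± 0.10; limma adjusted p = 0.0206) and IMPDH2 (0.25 ± 0.08; limma adjusted p = 0.0489) rose, but neither call was kept without U2932 or without OCILY1.

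At 12 h all 6 ring genes of purine synthesis fell. PAICS had 10.85 in RIVA, a median of 11.31 and 12.14 in SUDHL10 under PQR309, against 11.64 in TMD8, 11.89 and 12.33 in SUDHL10 under DMSO (-0.52 ± 0.08; limma adjusted p = 0.00335). NME1 had 11.78 in RIVA, 12.19 and 13.17 in SUDHL2 under PQR309, against 12.81 in DOHH2, 13.02 and 13.46 in SUDHL2 under DMSO (-0.75 ± 0.11; limma adjusted p = 0.00335). ODC1 had 10.33 in OCILY1, 11.39 and 12.13 in SUDHL2 under PQR309, against 11.61 in OCILY1, 12.13 and 12.29 in RIVA under DMSO (-0.70 ± 0.11; limma adjusted p = 0.00366). All 3 were lower in 8 of 8 lines, and the PQR309 cultures of RIVA or OCILY1 were the lowest. CTPS2 still rose, with 8.25 in DOHH2, 9.48 and 10.50 in U2932 under PQR309, against 8.15 in DOHH2, 9.25 and 9.81 in U2932 under DMSO (0.40 ± 0.09; limma adjusted p = 0.0125). IMPDH2 did not pass at 12 h (0.05 ± 0.05; limma adjusted p = 0.543), with 4 lines above 0 and 4 below.

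**Figure D4:**
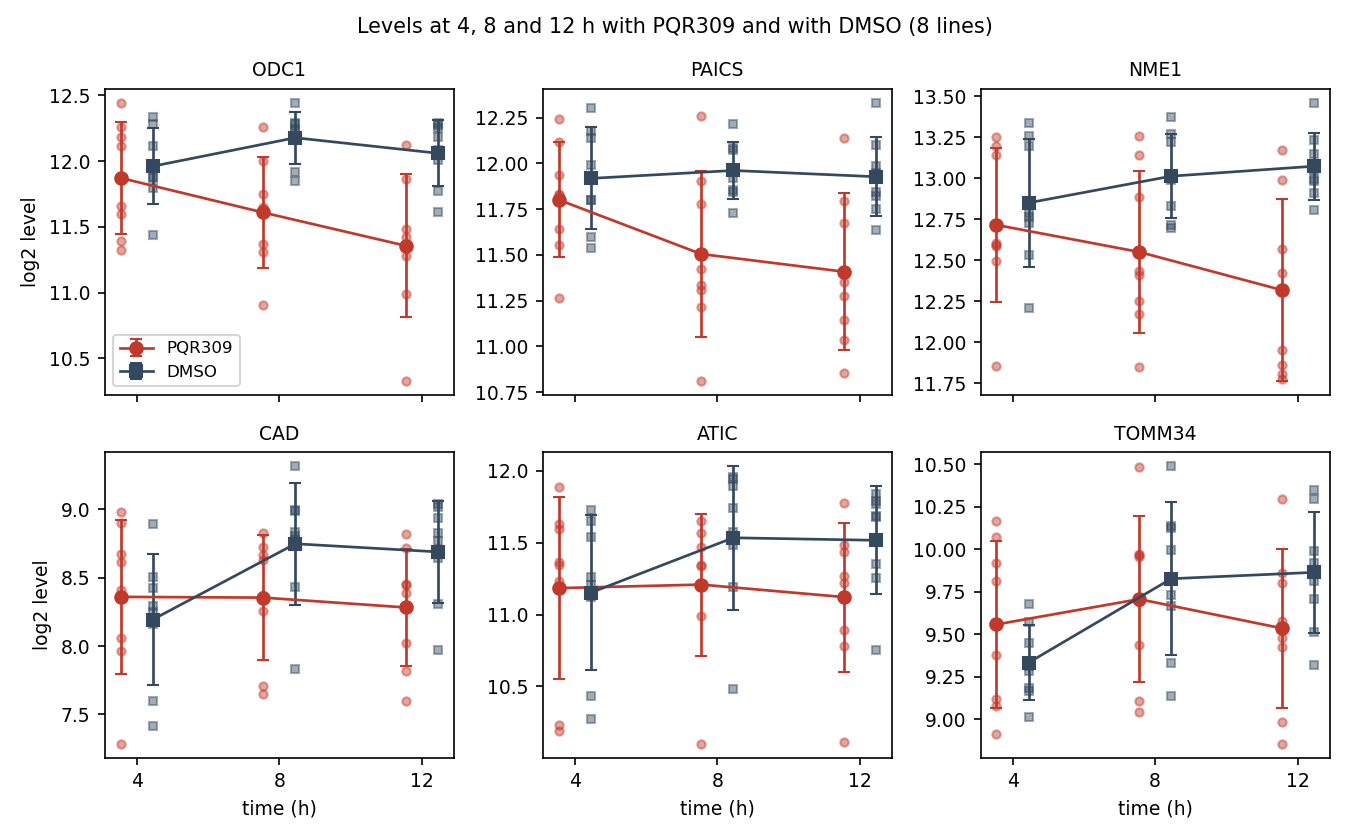
Levels (log2) of ODC1, PAICS, NME1, CAD, ATIC and TOMM34 at 4, 8 and 12 h under PQR309 and under DMSO. Small points are the 8 lines, large points their mean and bars the SD; ODC1 under PQR309 is lower at 12 h than at 4 h, and CAD under DMSO is higher.

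Whether the effect itself differed between 12 h and 4 h was tested as a difference of differences. The 4 h DMSO arrays enter this test, and in OCILY18, RIVA, SUDHL2 and SUDHL10 they agreed least with their line, as given below. The effect was lower at 12 h for 12 members and higher for 0, where 5.51% of all genes were lower and 4.87% higher. CAD had the smallest p. Its PQR309 minus DMSO difference averaged -0.41 ± 0.21 at 12 h and 0.17 ± 0.25 at 4 h (SD, n = 8 lines), and the line values at the 2 times did not overlap. The change was -0.57 ± 0.07 (SE; limma adjusted p = 0.00165), in the same direction in 8 of 8 lines. CAD stood at 7.60 in DOHH2, a median of 8.42 and 8.82 in SUDHL2 under PQR309 at 12 h, against 7.97 in DOHH2, 8.80 and 9.04 in SUDHL2 under DMSO. At 4 h it stood at 7.28 in DOHH2, 8.51 and 8.98 in SUDHL2 under PQR309, against 7.42 in DOHH2, 8.27 and 8.89 in TMD8 under DMSO.

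ADSL, not called over the 3 times, had a PQR309 effect of -0.38 ± 0.26 at 12 h and 0.11 ± 0.16 at 4 h (SD, n = 8), a change of -0.49 ± 0.06 (SE; limma adjusted p = 0.00169) in 8 of 8 lines. Its 12 h levels were 10.23 in U2932, 10.83 and 11.44 in SUDHL10 under PQR309, against 10.42 in SUDHL2, 11.20 and 11.62 in OCILY18 under DMSO. ODC1 had effects of -0.70 ± 0.37 at 12 h and -0.09 ± 0.24 at 4 h, a change of -0.61 ± 0.10 (SE; limma adjusted p = 0.00437), most in RIVA (-1.25). NME1 (-0.62), SRM (-0.58), TOMM34 (-0.55), ATIC (-0.43), PAICS (-0.40), IMPDH2 (-0.33), TOMM22 (-0.30), TIMM10 (-0.29) and MTHFD1 (-0.23) were the other 9. For IMPDH2 the lower value at 12 h is a smaller rise. On the raw intensities, which cover 6 lines, 0 of all genes passed, with 1054 at an unadjusted p under 0.05. So none of the 12 passed there, and all 12 kept a value below 0, between -0.44 and -0.05.

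The DMSO arrays differed between the times as well. On the normalized arrays the 4 h DMSO array agreed least with its line in OCILY18 (median correlation 0.978), RIVA (0.984), SUDHL2 (0.984) and SUDHL10 (0.988). In these lines the 4 h PQR309 minus DMSO difference of TOMM34 was 0.50, 0.63, 0.62 and 0.60. In the other lines it lay below 0. With 1 array per line, treatment and time, a change in the culture and a property of the 4 h array cannot be told apart. Under DMSO 5 members rose between the times and 0 fell, where 4.14% of all genes rose and 3.50% fell. CAD was higher at 12 h than at 4 h in 8 of 8 lines (0.50 ± 0.07; SE; limma adjusted p = 0.0056), from 0.12 in TMD8 to 0.71 in RIVA. TOMM34 had 9.32 in U2932, a median of 9.87 and 10.35 in OCILY18 at 12 h, against 9.01 in U2932, 9.30 and 9.68 in OCILY1 at 4 h (0.53 ± 0.08; limma adjusted p = 0.0074). ATIC had 10.75 in RIVA, 11.68 and 11.84 in OCILY1 at 12 h, against 10.27 in RIVA, 11.23 and 11.73 in TMD8 at 4 h (0.36 ± 0.08; limma adjusted p = 0.0194). ADSL (0.30) and GART (0.35) were the other 2. Without RIVA 2 of the 5 remained called, and none was called on the raw intensities of 8 lines, where 22 genes were called in all.

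Under PQR309 2 members were lower at 12 h than at 4 h and 0 higher, where 1.11% of all genes were lower and 1.41% higher. PAICS had 10.85 in RIVA, a median of 11.31 and 12.14 in SUDHL10 at 12 h, against 11.26 in RIVA, 11.83 and 12.24 in SUDHL10 at 4 h (-0.39 ± 0.07; limma adjusted p = 0.0225). ODC1 had 10.33 in OCILY1, 11.39 and 12.13 in SUDHL2 at 12 h, against 11.33 in OCILY1, 11.89 and 12.44 in SUDHL2 at 4 h (-0.52 ± 0.10; limma adjusted p = 0.0278). Both were lower in 8 of 8 lines. Neither was called without RIVA, without OCILY18 or on the raw intensities, where 40 genes were called in all. CAD changed by -0.08 under PQR309 and did not pass (limma adjusted p = 0.683). These 3 comparisons use the same arrays, so they are not separate evidence.

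In the 4 lines given every inhibitor, compared on the raw table, the members also ran low. PQR309 lowered 19 of the 38 members tested there and raised 2, where 6.26% of all 12557 genes fell and 7.19% rose. IDELALISIB lowered 9 (1.92% of all genes fell) and IBRUTINIB 5 (1.78% of all genes fell), and neither raised any, where 2.78% and 1.23% of all genes rose. DUVELISIB changed 0 members in limma (0% of all genes fell and 0.0159% rose), with 19 members and 1835 genes at an unadjusted p under 0.05. The median differences were -0.27 for PQR309, -0.21 for IDELALISIB, -0.16 for DUVELISIB and -0.12 for IBRUTINIB, with 33, 33, 32 and 32 of 38 members below 0. Without the 8 h arrays of SUDHL2, of which the DMSO array stood apart, PQR309 lowered 22 members and raised 2, IDELALISIB lowered 9, IBRUTINIB 6 and DUVELISIB 0, beside 1871, 518, 164 and 0 genes called in all. All 4 inhibitors are set against the same DMSO arrays, so their values are given side by side and not as separate evidence of each other.

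**Figure D5:**
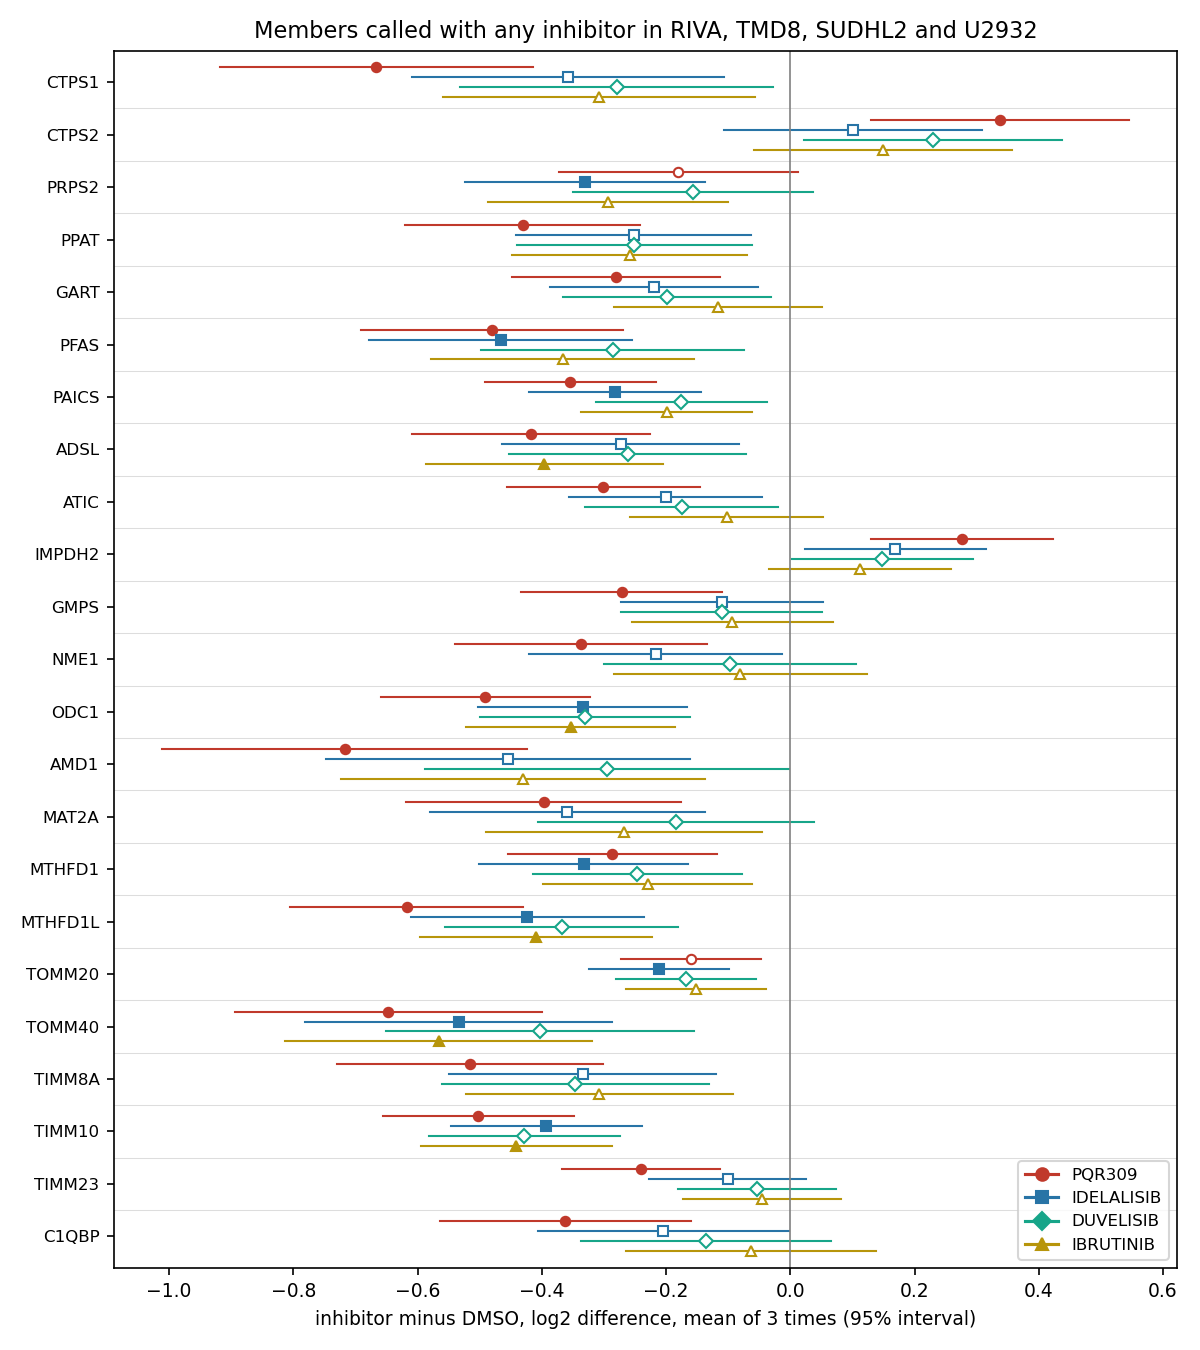
Difference from DMSO (log2, raw table, mean of 3 times) for the 23 members called in at least 1 inhibitor comparison in RIVA, TMD8, SUDHL2 and U2932, with 95 percent intervals from limma and filled points where called. PQR309, IDELALISIB, DUVELISIB and IBRUTINIB are drawn in that order, and TIMM10 lies between -0.50 and -0.39 with all 4.

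TIMM10 was the member with the smallest adjusted p for IDELALISIB and for IBRUTINIB. In RIVA, SUDHL2, TMD8 and U2932 its levels were 8.94, 11.37, 9.56 and 9.46 with PQR309, and 8.89, 11.37, 9.70 and 9.82 with IDELALISIB. They were 8.85, 11.27, 9.66 and 9.86 with DUVELISIB, 8.97, 11.29, 9.70 and 9.62 with IBRUTINIB, and 9.41, 11.70, 10.18 and 10.07 with DMSO. Every inhibitor was below DMSO in every line, while SUDHL2 stayed far above the other lines, so the ranges overlap. The differences were -0.50 with PQR309 (limma adjusted p = 0.00111), -0.39 with IDELALISIB (0.0112), -0.43 with DUVELISIB (0.0647) and -0.44 with IBRUTINIB (0.019), each ± 0.07 (SE, n = 4 lines).

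MTHFD1L, in the same line order, was at 7.42, 8.73, 7.15 and 7.46 with PQR309, 7.63, 8.83, 7.18 and 7.89 with IDELALISIB, 7.80, 8.97, 7.21 and 7.78 with DUVELISIB, 7.84, 8.998, 7.15 and 7.61 with IBRUTINIB, and 8.35, 9.08, 7.65 and 8.14 with DMSO. It was lower with each inhibitor in every line, and SUDHL2 changed least. The differences were -0.62 with PQR309 (limma adjusted p = 0.00108), -0.42 with IDELALISIB (0.0188), -0.37 with DUVELISIB (0.0899) and -0.41 with IBRUTINIB (0.0351), each ± 0.09 (SE). ODC1 was at 11.80, 11.98, 11.56 and 11.47 with PQR309, 11.98, 12.05, 11.60 and 11.82 with IDELALISIB, 11.93, 12.10, 11.62 and 11.82 with DUVELISIB, 12.07, 12.12, 11.69 and 11.49 with IBRUTINIB, and 12.54, 12.31, 11.95 and 11.99 with DMSO. It too was below DMSO in every line with every inhibitor. The differences were -0.49 with PQR309 (limma adjusted p = 0.00154), -0.33 with IDELALISIB (0.0288) and DUVELISIB (0.0899) and -0.35 with IBRUTINIB (0.0381), each ± 0.08 (SE).

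TOMM40 was at 11.07, 11.56, 11.29 and 10.19 with PQR309, 11.03, 11.18, 11.62 and 10.74 with IDELALISIB, 11.15, 11.42, 11.64 and 10.86 with DUVELISIB, 11.04, 11.42, 11.60 and 10.38 with IBRUTINIB, and 11.84, 11.90, 12.01 and 10.95 with DMSO, again in RIVA, SUDHL2, TMD8 and U2932. The differences were -0.65 with PQR309 (limma adjusted p = 0.00288), -0.53 with IDELALISIB (0.0218), -0.40 with DUVELISIB (0.125) and -0.57 with IBRUTINIB (0.0338), each ± 0.12 (SE). TOMM40 was below DMSO in every line with every inhibitor, and without the 8 h arrays of SUDHL2 its IDELALISIB call was lost (-0.40; adjusted p = 0.0604). PFAS with IDELALISIB (-0.47; limma adjusted p = 0.0207) and PAICS with IDELALISIB (-0.28; 0.0259), both of purine synthesis, fell as well. MTHFD1 (-0.33), TOMM20 (-0.21) and PRPS2 (-0.33) were the other falls with IDELALISIB, of which PRPS2 lost its call without those arrays (-0.30; adjusted p = 0.0821). None of the calls in these 4 lines, 21 with PQR309, 9 with IDELALISIB and 5 with IBRUTINIB, was kept under every alternative. Median scaling, and paired differences of the 2 treatments only, each called 0 of all genes against DMSO, so no member could keep its call there. With IBRUTINIB ADSL (-0.40; limma adjusted p = 0.0382) was the other fall.

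The 2 members that rose with PQR309 in 8 lines also rose with it here, CTPS2 by 0.34 (limma adjusted p = 0.0311) and IMPDH2 by 0.28 (0.0154). With IDELALISIB, DUVELISIB and IBRUTINIB CTPS2 was at 0.10, 0.23 and 0.15 and IMPDH2 at 0.17, 0.15 and 0.11, none of which passed. CTPS1 was at -0.67 with PQR309 (limma adjusted p = 0.00268), -0.36 with IDELALISIB, -0.28 with DUVELISIB and -0.31 with IBRUTINIB. Of these the PQR309 value passed, TMD8 was the lowest line with each inhibitor, and in SUDHL2 CTPS1 was below DMSO with PQR309 (-0.27) and above it with IDELALISIB (0.06), DUVELISIB (0.09) and IBRUTINIB (0.18). AMD1 was at -0.72 with PQR309 (limma adjusted p = 0.00407), -0.45 with IDELALISIB, -0.29 with DUVELISIB and -0.43 with IBRUTINIB.

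The inhibitors were also set against each other at the same 3 times, as 4 pairs, at doses not given in the labels. PQR309 minus IDELALISIB, PQR309 minus DUVELISIB, PQR309 minus IBRUTINIB and DUVELISIB minus IDELALISIB called 0 of 38 members each in limma, with 4, 7, 11 and 0 members at an unadjusted p under 0.05. In the same order, 0.0876%, 0%, 0.0557% and 0% of all genes were called. Without the 8 h arrays of SUDHL2, 1421, 1032, 1557 and 372 of all genes were at an unadjusted p under 0.05. That fit differs from the one behind the member counts, so the counts are not read as a result about the members. With paired differences of only the 2 treatments, PQR309 minus IBRUTINIB called 1 member and 65 genes. In that pair the line medians lay below 0 in 4 of 4 lines for each function, at -0.10 ± 0.04 for nucleotide genes, -0.12 ± 0.05 for polyamine, methionine and folate genes and -0.12 ± 0.03 for import genes (mean ± SD). The smallest adjusted p of a member was 0.398, 0.522, 0.234 and 0.9997. The member differences ran over -0.31 to 0.24, -0.42 to 0.13, -0.36 to 0.21 and -0.08 to 0.18, and the 95 percent intervals reached as far as -0.56 to 0.48, -0.72 to 0.36, -0.61 to 0.58 and -0.27 to 0.53. These intervals have a median width of 0.192 to each side, so a gap between PQR309 and another inhibitor that is as large as many of the effects themselves was not detectable, and the calls do not show that the inhibitors act alike.

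Single lines decide the counts in these 4 lines. PQR309 lowered 10 members without RIVA, 6 without TMD8 and 9 without U2932, and raised 0 in each. IDELALISIB lowered 0 without RIVA or without TMD8, IBRUTINIB 0 without RIVA, TMD8 or U2932, and DUVELISIB 1 without SUDHL2. The ranges of all genes called over these omissions are given in the section on processing below. With median scaling in place of quantile normalization limma called 0 members and 0 of all genes with any inhibitor. The median standard error was then 0.150, against 0.0798. The member medians were -0.37, -0.27, -0.07 and -0.15 with PQR309, IDELALISIB, DUVELISIB and IBRUTINIB, beside medians over all genes of -0.026, -0.012, 0.060 and -0.0075. Relative to all genes the members were at -0.34, -0.26, -0.13 and -0.14 with median scaling, and at -0.28, -0.22, -0.17 and -0.12 with quantile normalization. MYC was at -0.58, -0.81, -0.53 and -0.68 with PQR309, IDELALISIB, DUVELISIB and IBRUTINIB, none of which passed (limma adjusted p between 0.072 and 0.355). Between the tables, all 38 members were read from the same probe, and 31 of them lay below 0 under PQR309 in the 4 lines in both.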

How the data were processed

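The authors deposited normalized log2 values, treated here as 2 sets, and raw probe intensities with detection p-values. The median over all values was 6.64 in the 48 PQR309 and DMSO arrays and 6.66 in the other arrays, and whether the sets were scaled together is not given. The submitters' processing notes name GenomeStudio, and its version and the normalization and background steps are not given in the sources used here. Of 47231 probes, 30113 had 1 gene symbol in the array annotation, 8 had several and 17110 none. No sample column was left unused (0), and 3 OCILY1 raw columns held a detection p-value and were not used as intensity.

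The PQR309 and DMSO comparisons used the deposited normalized log2 values of the 8 lines (48 arrays). The inhibitor comparisons used the deposited intensities of 4 lines (60 arrays), which hold every treatment on a shared scale, corrected for background by normexp (offset 50), then set to shared quantiles and logged. The brighter 50 percent of probes by mean was kept and the brightest probe per gene taken. Differences within a line were tested with limma 3.58.1 (R 4.3.3), two-sided, with Benjamini-Hochberg adjustment over all 12441 or 12557 genes and a threshold of 0.05. Figures used Python 3.11.15, pandas 2.3.3 and matplotlib 3.10.9. The tests were checked on simulated data.

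Arrays of the same line deviated together (correlation 0.925 to 0.954 in 8 lines and 0.878 to 0.98 in 4), so the line is the block. The detection limit was 6.73 on the normalized arrays and 6.29 on the raw ones. Both came from the 3 OCILY1 arrays with detection p-values, on which 39 to 40.2 percent of probes were detected. For the raw arrays of the 4 lines, which do not include OCILY1, the lowest of these shares was applied. The number of arrays limits the precision. The members and gene lists were chosen with earlier results of these data known. Values over the lines (lowest, median and highest for 8 lines, every line for 4) are given for the 3 members of smallest adjusted p per function, members that rose, the 4 paralog pairs, and up to 3 called members per direction in every other comparison. Of the other lists up to 3 called genes of largest change per direction are named. Alternatives were raw intensities, all probes, the mean of a gene's probes, other scaling, other fits, and leaving out lines or times; leaving out the 8 h arrays of SUDHL2 was added after seeing the data, because its raw DMSO array at 8 h had a median correlation of 0.942 with the other arrays of its line.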

Additional observations from a re-analysis of the deposited data

Results flagged for a closer look

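Among 153 groups of line values tested for a single value far from the others, 4 had one, where chance flags about 5 percent of groups, so 4 is no more than chance gives. SUDHL2 was at 0.0386 for TIMM10 with PQR309 over the 3 times, against a mean of -0.451 in the other lines. OCILY1 was at -1.33 for AMD1 with PQR309 at 4 h, against -0.30 in the others. In the 4 lines given every inhibitor, SUDHL2 was at -0.34 for TOMM40 with PQR309 (others -0.749) and at -0.0855 for MTHFD1L with IBRUTINIB (others -0.517).

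For 12 members the PQR309 effect at 12 h differed from the effect at 4 h by the limma test of that difference. The changes were -0.493 in ADSL, -0.427 in ATIC, -0.572 in CAD, -0.332 in IMPDH2, -0.231 in MTHFD1 and -0.62 in NME1. They were -0.614 in ODC1, -0.402 in PAICS, -0.578 in SRM, -0.29 in TIMM10, -0.304 in TOMM22 and -0.554 in TOMM34.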

How the results depend on the processing

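Without the line as a block or pairing, limma called 0 members in every comparison, and 0, 1, 0 and 0 genes for PQR309 over the 3 times, at 4, 8 and 12 h (441, 781, 568 and 538 at an unadjusted p under 0.05). It called 0 genes for the 12 h minus 4 h effect (271 unadjusted), for DMSO (557) and for PQR309 (234) between the times. In the 4 lines it called 1 gene for PQR309 (313), and 0 for IDELALISIB (135), DUVELISIB (58), IBRUTINIB (169), PQR309 minus IDELALISIB (31) and PQR309 minus IBRUTINIB (49). The cause was not tested.

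On the raw intensities (6 to 8 lines) 12 members fell and 1 rose over the 3 times (1285 genes), 3 fell and 0 rose at 4 h (207 genes) and at 8 h (84 genes), and 0 rose at 12 h (843 genes). Counts were 0 members for the effect at 12 h minus 4 h (0 genes, 1054 unadjusted), 0 for DMSO (22 genes) and 0 for PQR309 between the times (40 genes). With all probes kept 1 member rose at 4 h and at 8 h, 1 fell for PQR309 between the times, and 1 fell with IBRUTINIB (65 genes). With the mean of a gene's probes 1 rose at 4 h and at 8 h, NME2 reversed to -0.0855, and genes called were 0 for DUVELISIB (1819 unadjusted), 4 for PQR309 minus IDELALISIB and 4 for PQR309 minus IBRUTINIB. Without the 4 h arrays 1 member rose, and NME2 reversed to -0.085.

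With median scaling limma called 0 members and 0 genes in the 4 lines (1050, 486, 450 and 650 unadjusted for PQR309, IDELALISIB, DUVELISIB and IBRUTINIB, and 121 and 250 for PQR309 minus IDELALISIB and minus IBRUTINIB), and the import mean under PQR309 was -0.389. With paired differences of 2 treatments only it called 0 genes (3070, 1978, 1172, 2132 and 1056 unadjusted in that order), except 1 member and 65 genes for PQR309 minus IBRUTINIB. Without the 8 h arrays of SUDHL2 the genes called were 0 for DUVELISIB (1768 unadjusted), 164 for IBRUTINIB and 14 for PQR309 minus IBRUTINIB.

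Leaving out each line in turn gave, over the 3 times, 19 to 24 members fallen, 2 to 2 risen and 2584 to 3393 genes; at 4 h 4 to 8, 1 to 2 and 1304 to 2206; at 8 h 19 to 24, 0 to 2 and 1215 to 2177; and at 12 h 20 to 25 fallen and 1637 to 2680 genes. The effect at 12 h minus 4 h gave 8 to 14 members and 722 to 1437 genes, DMSO 2 to 5 risen, 0 to 1 fallen and 339 to 902 genes, and PQR309 between the times 0 to 3 fallen and 66 to 451 genes. In the 4 lines the ranges were 6 to 19 fallen, 0 to 2 risen and 293 to 2046 genes for PQR309, 0 to 7 fallen and 0 to 429 genes for IDELALISIB, 0 to 1 fallen and 0 to 82 genes for DUVELISIB, 0 to 7 fallen and 2 to 475 genes for IBRUTINIB, 0 to 0 genes for PQR309 minus IDELALISIB and 0 to 10 for PQR309 minus IBRUTINIB. For single genes, these omissions kept the direction and side of the threshold 767 times and lost the call 205 times; the other alternatives kept it 533 times, lost it 314 times and reversed 2. Signal near background limits TIMM13, DHODH and UMPS.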

Other observations

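MYC moved in opposite directions between lines, as given above, and MXD3 and MXD4, whose products compete with MYC for MAX, rose with PQR309. MXD3 averaged 7.94 ± 0.65 under PQR309 and 7.36 ± 0.27 under DMSO (SD, n = 8 lines), a difference of 0.58 ± 0.13 (SE; limma adjusted p = 0.00833) that was above 0 in 8 of 8 lines. MXD4 differed by 0.29 ± 0.07 (SE; limma adjusted p = 0.0102), above 0 in 7 of 8 lines, and MLX, a partner of related factors, by -0.14 ± 0.04 (SE; limma adjusted p = 0.0175). Of the 9 genes of this list 2 rose and 1 fell. Among B-cell markers MS4A1, which encodes CD20, fell (-0.51 ± 0.14; SE; limma adjusted p = 0.0192) and CD79B, a B-cell receptor subunit, rose (0.32 ± 0.09; SE; limma adjusted p = 0.0262).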
